A study of Mus musculus with 12 samples.

Results

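The genes described here encode tumor necrosis factor (TNF), the lymphotoxins, the receptors that bind them and the protease that releases TNF from the cell surface. The set was fixed by name as Tnf, Lta and Ltb (ligands), Tnfrsf1a, Tnfrsf1b and Ltbr (receptors), Tnfrsf11b (a secreted decoy receptor) and Adam17 (the protease). These 8 genes, of 35688 in the deposited table, were represented by 26 of its 113193 transcripts. RNA was measured in whole colon of 2-week-old mice, with 6 Il10-/- Tnfr1-/- colons (replicates 1 to 6) set against 5 Il10-/- colons (replicates 1, 2, 3, 5 and 6). All 11 mice lacked Il10, which encodes interleukin 10, a cytokine that restrains inflammation, and the first group also lacked TNF receptor 1, the product of Tnfrsf1a. There was no colon with an intact Il10 gene, so no value can be set against a healthy one. How the alleles were made and the strain, sex and litter of the mice are not given in the sources used here.

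TNF is made as a trimer in the cell membrane, mainly by activated macrophages and lymphocytes, and ADAM17 cuts it free. It acts through TNF receptor 1, which most cell types carry, and through TNF receptor 2, encoded by Tnfrsf1b, which is best known on leukocytes and endothelium. Lymphotoxin alpha, encoded by Lta, forms a secreted trimer that binds the same receptors, and together with lymphotoxin beta, encoded by Ltb, it forms a membrane trimer that binds the lymphotoxin beta receptor, encoded by Ltbr. In the gut, lymphotoxin made by lymphoid cells and received by stromal cells is required for lymph nodes, Peyer's patches and the lymphoid follicles of the mucosa. Osteoprotegerin, the product of Tnfrsf11b, is a secreted receptor that captures the TNF superfamily ligands RANKL and TRAIL.

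The scaling of the deposited abundances is not named in the sources used here. Division by transcript length was assumed, and levels of different genes are compared below only on that assumption. The abundances were not treated as read counts, and sequencing depth is unknown. A library summed to between 804109 and 1378971, and 41.7% to 55.1% of transcripts were at 0 in a library. The 7 markers of colon identity examined were all detected. Smooth muscle marker genes had higher means in Il10-/- Tnfr1-/- colons, and their summed abundance ran from 828 to 8010 there, with a median of 2508, against 184 to 3505, with a median of 833, in Il10-/- colons. Of these 10 genes, 9 were at an unadjusted p under 0.05 and none passed adjustment. In whole tissue, fewer cells of a type and less RNA per cell cannot be told apart. The labels say of the replicates only that they are separate samples, so p-values measure the spread between these samples. The titles are numbers whose first digit is unexplained: digit 1 covers 2 Il10-/- Tnfr1-/- and 3 Il10-/- colons, digits 2 and 3 cover 2 Il10-/- Tnfr1-/- colons each, and digit 4 covers 2 Il10-/- colons. Whatever the digit marks cannot be told apart from the genotype outside digit 1.

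Across the whole table, no gene of 13561 passed an adjusted p of 0.05 in limma, which is 0% of those tested, while 1131 (8.34%) were at an unadjusted p under 0.05. Among the 8 genes described here, 7 passed the filter on low values (an abundance over 1 in at least 5 libraries), 0 passed the adjusted threshold and 2 were at an unadjusted p under 0.05. Those were Tnfrsf1a, which was lower in Il10-/- Tnfr1-/- colons, and Tnfrsf11b, which was higher. Over all genes tested, 488 (3.6%) were lower and 643 (4.74%) were higher at that level. Higher genes were thus 56.9% of those at that level, against 75.1% with libraries scaled to equal totals, 40.3% with median-ratio scaling and 41.3% with quantile normalization. The number at that level was 2458 without Il10-/- replicate 1, 1727 without Il10-/- replicate 2 and 482 without Il10-/- replicate 6, and 243 with the first title digit as a covariate. The mean log2 value was lower for 4 of the 8 genes and higher for 4, and 55.5% of all genes tested had a fold change above 0, with a median of 0.05 on the log2 scale. Fold changes below are Il10-/- Tnfr1-/- minus Il10-/- on the log2(abundance + 0.5) scale, which understates the change of genes of low abundance. Adjusted p-values are from limma with Benjamini-Hochberg adjustment over all genes, and exact p-values are from the two-sided permutation test over all 462 assignments of the 11 colons, whose smallest value is 0.00216.

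**Figure D1:**
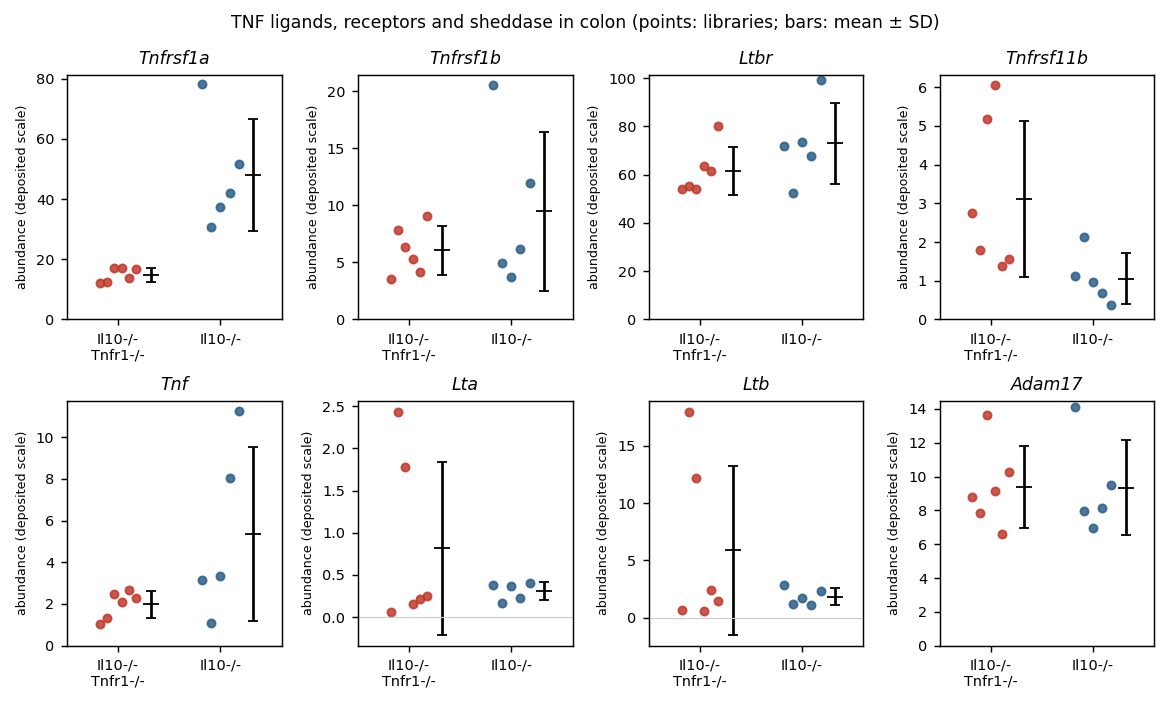
Summed abundance (deposited scale, vertical axes) of the 8 genes in each colon, with points for libraries and bars for the mean ± SD, Il10-/- Tnfr1-/- (n = 6) left of Il10-/- (n = 5). Tnfrsf1a is the gene whose groups do not overlap, the points for Lta and Ltb include 2 high Il10-/- Tnfr1-/- colons, and Tnf is highest in 2 Il10-/- colons.

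Tnfrsf1a, the targeted gene, spans bases 125349362 to 125362484 of chromosome 6 in mm10, plus strand. Its summed abundance in Il10-/- Tnfr1-/- colons ran from 12.0 to 17.0 with a median of 15.3. In Il10-/- replicates 1, 2, 3, 5 and 6 it was 78.1, 30.6, 37.4, 41.9 and 51.7. The groups did not overlap, and Il10-/- replicate 1 stood above the other Il10-/- colons. The means were 14.8 ± 2.34 in Il10-/- Tnfr1-/- (SD, n = 6) and 47.9 ± 18.5 in Il10-/- (SD, n = 5), so that 30.9% of the Il10-/- mean was still measured in the knockout. This gave -1.60 ± 0.22 (SE) as log2 fold change, at the smallest possible exact p of 0.00216 and a limma adjusted p of 0.125. It passed the adjusted threshold with quantile normalization (0.0339) and without Il10-/- replicate 2 (0.0340), within a range of 0.0339 to 1.00 over the alternatives. Of all genes tested, 36 (0.265%) had lower, non-overlapping groups. Among the sample names that start with 1 the difference was -1.83 with an exact p of 0.1, the smallest that this split allows.

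Most of the Tnfrsf1a abundance in both genotypes was assigned to the full-length coding transcript. Tnfrsf1a-201, with 10 exons, held 91.9% ± 3.62 of the gene's abundance in Il10-/- Tnfr1-/- colons (SD, n = 6) and 97.2% ± 1.97 in Il10-/- colons (SD, n = 5). This share differed with an exact p of 0.0108, or 0.0541 after adjustment over the 5 genes whose share could be tested. Abundance on the other annotated transcripts of the gene was 1.15 ± 0.409 in Il10-/- Tnfr1-/- and 1.18 ± 0.603 in Il10-/- colons (exact p = 0.894). Tnfrsf1a-201 itself had a log2 fold change of -1.68 ± 0.25 (SE, limma adjusted p = 0.611 over 27895 transcripts). In the authors' deposited table this transcript has a q of 0.0811 and a log2 fold of -1.79, and no transcript there has a q under 0.05. The sources used here do not say how the allele alters the gene, and abundances of whole transcripts do not show where in the gene the reads lay.

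The 3 ligand genes sit together on chromosome 17 within the major histocompatibility complex. In mm10, Ltb spans 35194439 to 35196320, plus strand, Tnf from 35199381 to 35202007 on the minus strand and Lta from 35203165 to 35205351 on the minus strand. The start of Tnf is 7.57 kb from that of Ltb and 3.34 kb from that of Lta. The bases just before the first annotated start of each gene are shown because these neighbours did not share a pattern across the colons, Ltb and Lta being high in the same libraries and Tnf in others. The bases are from RefSeq's promoter table (GRCm38.p6), read 5′ to 3′ on the strand of the gene, with motif matches in capitals.
Tnf, chr17:35202008-35202257, minus strand: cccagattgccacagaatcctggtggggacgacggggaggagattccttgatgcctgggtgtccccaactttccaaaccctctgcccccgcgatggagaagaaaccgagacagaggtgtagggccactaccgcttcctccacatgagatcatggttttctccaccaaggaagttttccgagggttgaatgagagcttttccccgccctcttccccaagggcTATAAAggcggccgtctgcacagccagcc
Lta, chr17:35205352-35205601, minus strand: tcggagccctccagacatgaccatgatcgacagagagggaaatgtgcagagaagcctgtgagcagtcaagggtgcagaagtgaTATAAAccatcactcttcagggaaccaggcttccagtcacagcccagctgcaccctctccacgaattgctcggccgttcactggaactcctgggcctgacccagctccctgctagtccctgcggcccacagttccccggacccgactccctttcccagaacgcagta
Ltb, chr17:35194257-35194438, plus strand: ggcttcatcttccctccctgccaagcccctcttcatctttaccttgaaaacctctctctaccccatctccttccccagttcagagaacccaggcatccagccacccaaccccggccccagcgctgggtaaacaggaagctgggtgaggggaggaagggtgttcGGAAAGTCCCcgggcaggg

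Each window was searched on both strands for TATAAA, the core of a TATA box, and for the kappaB consensus bound by NF-kappaB. TATAAA was found in the Tnf window, 23 bases before its end, and in the Lta window, 161 bases before its end. Of 32851 mouse promoters of the same length, 12.4% held it. A kappaB match, on the strand opposite to the gene, was found in the 182-base Ltb window 9 bases before its end, and 5.11% of promoters of that length held one. No kappaB match was found in the Tnf and Lta windows of 250 bases, where 7.25% of promoters held one, which says only that those letters are not in these windows.

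Tnf, the ligand of TNF receptors 1 and 2, had a lower mean in Il10-/- Tnfr1-/- colons, and its spread was wider in Il10-/- colons. Il10-/- Tnfr1-/- colons ran from 1.03 to 2.66 with a median of 2.19. Il10-/- replicates 1, 2, 3, 5 and 6 had 3.14, 1.07, 3.33, 8.06 and 11.2. Of the Il10-/- colons, 4 lay above every Il10-/- Tnfr1-/- colon, and replicate 2 lay among the lowest of all. The means were 1.98 ± 0.660 in Il10-/- Tnfr1-/- (SD, n = 6) and 5.37 ± 4.16 in Il10-/- (SD, n = 5), a log2 fold change of -0.96 ± 0.45 (SE), and the difference did not pass either test (limma adjusted p = 0.536, exact p = 0.0823). Without Il10-/- replicate 2, the only Il10-/- colon inside the other group's range, the fold change was -1.35. The groups then no longer overlap, so the exact p of 0.00476 is the smallest that this split allows, and the limma adjusted p was 0.2765. Without Il10-/- replicate 6 it was -0.63 with an exact p of 0.2 and a limma adjusted p of 0.9359. Fitted with a smooth muscle score beside genotype, the fold change was -0.58.

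The neutrophil marker sum and Tnf were both highest in Il10-/- replicate 6. The summed abundance of 11 neutrophil markers was 4.19 to 33.1 in Il10-/- Tnfr1-/- colons, with a median of 6.14, and 18.7 to 262 in Il10-/- colons, with a median of 27.7. Replicate 6 had 262 with 11.2 of Tnf, replicate 1 had 102 with 3.14 of Tnf, and replicate 5, with 8.06 of Tnf, had 27.7. In Il10-/- colons the sum came mostly from S100a8, S100a9 and Ltf, whose highest values there were 170, 56.1 and 32.4. Csf3r and Cxcr2, also in the list, were no higher than 2.49 and 0.979 in Il10-/- colons. Of the 3 neutrophil markers that passed the filter, S100a8 (a subunit of calprotectin) had a log2 fold change of -3.85 ± 0.97 (SE) and S100a9 (its partner) -2.45 ± 0.85, both at an unadjusted p under 0.05 and a limma adjusted p of 0.536, while Elane was at 0 in every library. Retnlg and Fpr1, below the filter, had higher means in Il10-/- Tnfr1-/- colons, at 0.547 and 0.0802, than in Il10-/- colons, at 0.286 and 0.0350. Summed markers of macrophages, a main source of TNF, ran from 101 to 268 in Il10-/- Tnfr1-/- and from 102 to 197 in Il10-/- colons. Of the 10 of 12 that passed the filter, 9 had a fold change above 0, with a median of 0.28, against 55.5% of all genes tested. At an unadjusted p under 0.05, 1 of the 10 was higher and 1 lower, against 8.34% of all genes in either direction. The part of these cells in the Tnf values was not tested.

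Ltb, which anchors lymphotoxin in the membrane, was high in 2 of the 6 Il10-/- Tnfr1-/- colons. Replicate 2 had 18.0 and replicate 3 had 12.2, and the other 4 Il10-/- Tnfr1-/- colons ran from 0.576 to 2.45. Il10-/- replicates 1, 2, 3, 5 and 6 had 2.85, 1.17, 1.73, 1.08 and 2.33, within or just above that lower range. The means were 5.89 ± 7.38 in Il10-/- Tnfr1-/- (SD, n = 6) and 1.83 ± 0.757 in Il10-/- (SD, n = 5). The log2 fold change of 0.63 ± 0.71 (SE) was within the spread between colons (limma adjusted p = 0.689, exact p = 0.446), and it was 0.15 without Il10-/- Tnfr1-/- replicate 2 and 0.26 without replicate 3.

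Lta, the partner of Ltb, was lower still and had the same 2 colons at its top. It was over 1 in only 2 libraries, Il10-/- Tnfr1-/- replicate 2 at 2.43 and replicate 3 at 1.78, and so did not pass the filter. The other 4 Il10-/- Tnfr1-/- colons had 0.0641 to 0.253, and the 5 Il10-/- colons had 0.167 to 0.400. Its means of 0.816 ± 1.02 in Il10-/- Tnfr1-/- (SD, n = 6) and 0.308 ± 0.103 in Il10-/- (SD, n = 5) gave a difference of 0.39 in mean log2 value (exact p = 0.448). It was 0.09 without Il10-/- Tnfr1-/- replicate 2 and 0.16 without replicate 3.

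Summed lymphocyte markers were highest in those same 2 colons. Summed over 12 B cell markers, Il10-/- Tnfr1-/- replicates 2 and 3 had 195 and 102, the other 4 Il10-/- Tnfr1-/- colons 6.79 to 12.8 and Il10-/- colons 6.90 to 38.3. Summed over 12 T cell markers, they had 96.8 and 46.8, the other 4 Il10-/- Tnfr1-/- colons 9.57 to 24.4 and Il10-/- colons 10.1 to 21.4. Most of these markers were low, with 2 of the 12 B cell and 6 of the 12 T cell markers past the filter and none of those at an unadjusted p under 0.05. Cd72, 1 of the 2 B cell markers past the filter, reached 11.2 in Il10-/- Tnfr1-/- and 11.3 in Il10-/- colons, with a log2 fold change of 0.08 ± 0.44 (SE). Markers of group 3 innate lymphoid cells, the cells that supply lymphotoxin in the developing gut, summed to 60.6 and 69.1 in replicates 2 and 3, the highest among the Il10-/- Tnfr1-/- colons, and to 32.6 to 51.7 in Il10-/- colons. How much lymphoid tissue each piece of colon held was not measured, and its part in the Ltb and Lta values was not tested. Tnf was at 1.32 and 2.50 in replicates 2 and 3, inside the range of the other Il10-/- Tnfr1-/- colons.

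The summed abundance of stromal genes that depend on lymphotoxin in lymphoid organs was also highest in these 2 colons. The list of 7 genes, which includes the addressin Madcam1 and the T-zone chemokine Ccl21a, summed to 163 in Il10-/- Tnfr1-/- replicate 2 and 128 in replicate 3, to 19.0 to 41.4 in the other 4 and to 9.29 to 50.2 in Il10-/- colons. Of the 5 that passed the filter, 5 had a fold change above 0 and 1 was at an unadjusted p under 0.05, with a median of 0.50 on the log2 scale against 0.05 over all genes. That gene was Ccl21a, which has near-identical copies in the mouse genome, so that the division of reads among them is uncertain. It ran from 11.4 to 86.1 in Il10-/- Tnfr1-/- and from 2.41 to 21.8 in Il10-/- colons, a log2 fold change of 1.66 ± 0.67 (SE, limma adjusted p = 0.536). Vcam1, an adhesion molecule of stroma and endothelium, had a log2 fold change of 0.84 ± 0.39 and Madcam1, which guides lymphocytes into the gut, 0.41 ± 0.39, at adjusted p-values of 0.536 and 0.637 in limma. Icam1, an adhesion molecule and a further member, had its highest value, 7.82, in an Il10-/- colon, against 7.49 at most in Il10-/- Tnfr1-/- colons.

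**Figure D2:**
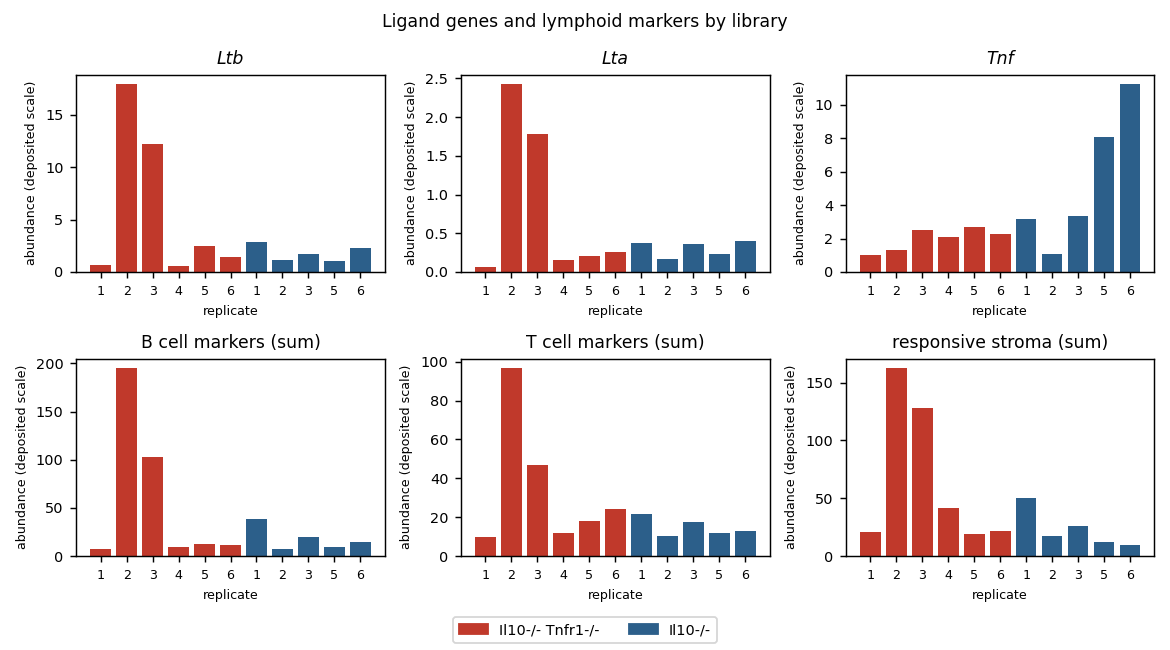
Abundance (deposited scale) of Ltb, Lta and Tnf and summed abundance of B cell markers, T cell markers and lymphotoxin-responsive stromal genes, with 1 bar for each colon, Il10-/- Tnfr1-/- left of Il10-/-. Il10-/- Tnfr1-/- replicates 2 and 3 are the highest for every panel except Tnf, which is highest in Il10-/- replicates 6 and 5.

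Ltb abundance was also divided unevenly among its annotated transcripts. No single Ltb transcript passed the filter on low values. Outside Il10-/- Tnfr1-/- replicates 2 and 3 the whole gene was no higher than 2.85, so most of these shares divide small abundances. The full-length coding transcript Ltb-201 held 68.2% ± 23.8 of Ltb abundance in Il10-/- Tnfr1-/- colons (SD, n = 6) and 40.3% ± 36.6 in Il10-/- colons (SD, n = 5), an overlap that the exact test did not separate (p = 0.177, adjusted over 5 genes 0.296). It carried 17.2 of the 18.0 in Il10-/- Tnfr1-/- replicate 2 and 11.3 of the 12.2 in replicate 3, and was at 0 in Il10-/- replicate 3. Tnf was measured wholly as Tnf-201, while Tnf-202 was at 0 in every library.

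Among the receptors, Tnfrsf1b lies on chromosome 4 from 145213463 to 145246870 on the minus strand. Its abundance ran from 3.54 to 9.07 in Il10-/- Tnfr1-/- colons with a median of 5.85. Il10-/- replicates 1, 2, 3, 5 and 6 had 20.6, 4.92, 3.75, 6.20 and 12.0, so that replicates 1 and 6 stood above every Il10-/- Tnfr1-/- colon and the other 3 lay inside that range. The means were 6.04 ± 2.13 in Il10-/- Tnfr1-/- (SD, n = 6) and 9.49 ± 6.96 in Il10-/- (SD, n = 5). The log2 fold change of -0.42 ± 0.39 (SE) was within the spread between colons (limma adjusted p = 0.633, exact p = 0.377) and was -0.08 without Il10-/- replicate 1. Fitted with the smooth muscle score, the fold change was -0.07.

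Ltbr, on chromosome 6 from 125306571 to 125313885 on the minus strand, was the most abundant of the 8 genes in both genotypes. Its start is 35.5 kb from that of Tnfrsf1a. Ltbr ran from 54.2 to 80.1 in Il10-/- Tnfr1-/- colons with a median of 58.4, and replicate 6 at 80.1 stood apart from the other 5, which lay between 54.2 and 63.6. Il10-/- replicates 1, 2, 3, 5 and 6 had 71.9, 52.6, 73.7, 67.9 and 99.1. The ranges overlapped, with 61.5 ± 9.97 in Il10-/- Tnfr1-/- (SD, n = 6) and 73.0 ± 16.8 in Il10-/- (SD, n = 5), a log2 fold change of -0.23 ± 0.17 (SE, limma adjusted p = 0.581, exact p = 0.195). Ltbr-201 held 99.0% ± 1.52 of the abundance in Il10-/- Tnfr1-/- and 98.3% ± 2.20 in Il10-/- colons.

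The balance between the receptors was examined as a ratio within each library. The 4 ratios were compared and adjusted together. The ratio of Tnfrsf1b to Tnfrsf1a, on the log2 scale with 0.5 added to each, averaged -1.28 ± 0.43 in Il10-/- Tnfr1-/- (SD, n = 6) and -2.46 ± 0.50 in Il10-/- colons (SD, n = 5), and the groups did not overlap (difference 1.18, exact p = 0.00216, adjusted 0.00433). In linear terms, if abundances are per transcript length, there were 0.429 parts of Tnfrsf1b to 1 of Tnfrsf1a in Il10-/- Tnfr1-/- and 0.190 in Il10-/- colons. The ratio of Ltbr to Tnfrsf1a averaged 2.02 ± 0.21 in Il10-/- Tnfr1-/- and 0.65 ± 0.44 in Il10-/- colons and did not overlap either (difference 1.37, exact p = 0.00216, adjusted 0.00433). Both ratios have Tnfrsf1a, the targeted gene, as their denominator, so a lower Tnfrsf1a by itself raises both. Neither numerator was higher, with log2 fold changes of -0.42 for Tnfrsf1b and -0.23 for Ltbr against -1.60 for Tnfrsf1a. These 2 tests are therefore not separate from that of Tnfrsf1a. The ratio of Tnf to Adam17 averaged -2.01 ± 0.48 in Il10-/- Tnfr1-/- and -1.04 ± 1.18 in Il10-/- colons (exact p = 0.102, adjusted 0.136), and that of Ltb to Ltbr -4.14 ± 1.85 in Il10-/- Tnfr1-/- and -5.01 ± 0.36 in Il10-/- colons (difference 0.86, exact p = 0.394). That last difference was 0.35 without Il10-/- Tnfr1-/- replicate 2 and 0.46 without replicate 3.

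Tnfrsf11b, the gene of osteoprotegerin, lies on chromosome 15 from 54250619 to 54278484 on the minus strand and has 1 transcript in the table. Il10-/- Tnfr1-/- replicates 1 to 6 had 2.74, 1.79, 5.19, 6.05, 1.38 and 1.56. Il10-/- replicates 1, 2, 3, 5 and 6 had 1.11, 2.13, 0.965, 0.693 and 0.382. Of the Il10-/- colons, 4 lay below every Il10-/- Tnfr1-/- colon and replicate 2 lay inside their range. The means were 3.12 ± 2.01 in Il10-/- Tnfr1-/- (SD, n = 6) and 1.05 ± 0.660 in Il10-/- (SD, n = 5), a log2 fold change of 1.14 ± 0.39 (SE). The exact p was 0.0238 and the limma adjusted p 0.536. Leaving out Il10-/- replicate 3, 5 or 6 moved the exact p to 0.0524, 0.0571 and 0.0619.

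The 2 colons with the most Tnfrsf11b also had the highest sums of smooth muscle, fibroblast and endothelial markers. Il10-/- Tnfr1-/- replicates 3 and 4, with 5.19 and 6.05 of Tnfrsf11b, had smooth muscle marker sums of 8010 and 7144, fibroblast marker sums of 1143 and 1685 and endothelial marker sums of 87.6 and 94.6. Il10-/- replicate 3 had the third highest smooth muscle sum, 3505, with a fibroblast sum of 397 and an endothelial sum of 63.4, and its Tnfrsf11b of 0.965 lay below every Il10-/- Tnfr1-/- colon. The part of these cells in the Tnfrsf11b values was not tested. The 8 fibroblast markers, all past the filter, summed to 201 to 1685 in Il10-/- Tnfr1-/- and 57.5 to 397 in Il10-/- colons, and 2 of the 8 were at an unadjusted p under 0.05 with higher means in Il10-/- Tnfr1-/-. Fitted with the smooth muscle score, the Tnfrsf11b log2 fold change was 0.54, and among the sample names that start with 1 it was 0.57 (exact p = 0.3).

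Adam17, which sheds TNF and both TNF receptors from the cell surface, lies on chromosome 12 from 21323509 to 21373632 on the minus strand. It ran from 6.62 to 13.7 in Il10-/- Tnfr1-/- colons with a median of 8.97. Il10-/- replicates 1, 2, 3, 5 and 6 had 14.1, 7.96, 6.97, 8.13 and 9.51. The ranges nearly coincided, with 9.39 ± 2.43 in Il10-/- Tnfr1-/- (SD, n = 6) and 9.33 ± 2.81 in Il10-/- (SD, n = 5), a log2 fold change of 0.02 ± 0.21 (SE, limma adjusted p = 0.977, exact p = 0.931). The sign of this value was negative with median-ratio scaling (-0.05) and quantile normalization (-0.06).

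Behind the near-equal sums, Adam17 abundance was divided differently between transcripts from colon to colon. Most of it was assigned to Adam17-201, which encodes the protease, and to Adam17-203, annotated as a target of nonsense-mediated decay, and the pair held 78.8% to 95.6% of the gene's abundance in Il10-/- Tnfr1-/- and 70.4% to 95.8% in Il10-/- colons. They have 19 exons each, and Adam17-203 differs inside the message by 19 bases added at the start of exon 6, chr12:21347431-21347449 in mm10. The transcripts are shown across this junction, from the GENCODE M21 transcript sequences, 5′ to 3′ on the minus strand of the chromosome, since these letters tell the pair apart at this junction. Capitals mark the added bases and the TGA stop that follows them in frame 28 bases later.
Adam17-203: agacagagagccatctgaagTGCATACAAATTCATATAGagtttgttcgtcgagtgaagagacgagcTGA
Adam17-201: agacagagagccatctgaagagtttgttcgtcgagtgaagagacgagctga

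Adam17-203 made up 1.70%, 0.0639%, 4.12%, 9.02%, 24.0% and 55.3% of Adam17 in Il10-/- Tnfr1-/- replicates 1 to 6. In Il10-/- replicates 1, 2, 3, 5 and 6 it made up 12.9%, 23.5%, 57.7%, 39.7% and 75.9%. It exceeded Adam17-201 in 1 of 6 Il10-/- Tnfr1-/- and 2 of 5 Il10-/- colons, and the groups overlapped. The mean shares of Adam17-203 were 15.7% ± 21.2 in Il10-/- Tnfr1-/- (SD, n = 6) and 41.9% ± 25.5 in Il10-/- (SD, n = 5), with an exact p of 0.0974. Those of Adam17-201 were 73.7% ± 20.7 in Il10-/- Tnfr1-/- and 41.2% ± 34.1 in Il10-/- colons (exact p = 0.0887, adjusted over 5 genes 0.222).

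In the fit across transcripts, none of 27895 passed adjustment (0%) and 1748 (6.27%) were at an unadjusted p under 0.05. Of the 26 transcripts of the set, 7 passed the filter, 3 were at an unadjusted p under 0.05 and 4 were at 0 in every library. Those 3 were Tnfrsf1a-201, Tnfrsf11b-201 and Adam17-203. Adam17-203 had a log2 fold change of -1.47 ± 0.60 and Adam17-201 one of 1.27 ± 0.68 (SE, limma adjusted p = 0.646 for both). In the authors' deposited table, Adam17-203 has a log2 fold of -1.31 with a p of 0.0453 and a q of 0.684. Reads were single-end and 75 bases long, and the labels do not say how many crossed this junction, so the limits of assigning abundance between transcripts this alike cannot be given.

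**Figure D3:**
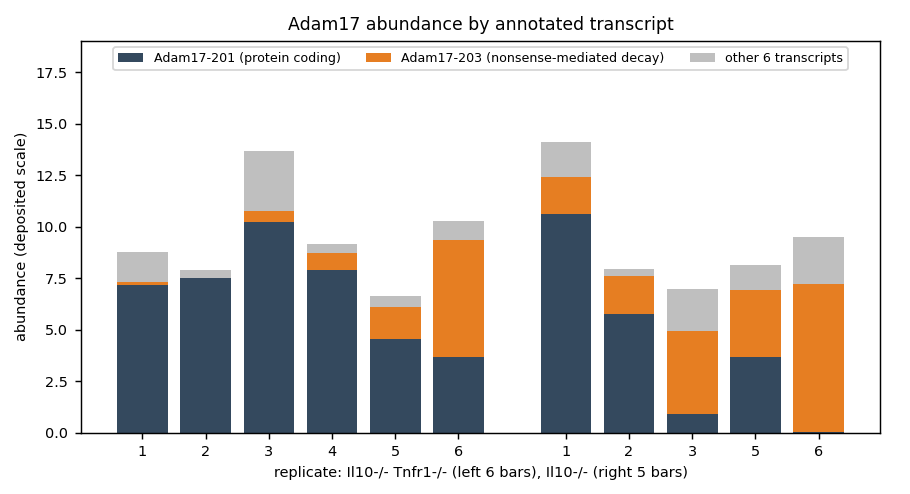
Adam17 abundance (deposited scale) in each colon, stacked as Adam17-201, Adam17-203 and the other 6 transcripts, Il10-/- Tnfr1-/- (6 bars) left of Il10-/- (5 bars). The full heights lie between 6.62 and 14.1 in both genotypes, while the Adam17-203 section is largest in Il10-/- replicate 6 and Il10-/- Tnfr1-/- replicate 6.

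The genes that regulate ADAM17 gave no call. The list held its maturation factors Rhbdf1 and Rhbdf2, its inhibitor Timp3 and related genes, and 5 of 5 passed the filter with none at an unadjusted p under 0.05 and a median fold change of -0.01. Timp3, which blocks ADAM17, averaged 19.2 ± 15.5 in Il10-/- Tnfr1-/- (SD, n = 6) and 9.34 ± 6.93 in Il10-/- (SD, n = 5), a log2 fold change of 1.01 ± 0.61 (SE, limma adjusted p = 0.537). Rhbdf2 ran from 6.01 to 7.03 in Il10-/- Tnfr1-/- and from 6.41 to 8.25 in Il10-/- colons. Proteins that control the stability of Tnf mRNA were likewise without a call: 7 of 7 passed the filter, none was at an unadjusted p under 0.05, and the median was 0.26. Zfp36, which encodes tristetraprolin and speeds the decay of Tnf mRNA, averaged 40.9 ± 16.5 in Il10-/- Tnfr1-/- and 58.7 ± 29.3 in Il10-/- colons, a log2 fold change of -0.47 ± 0.32 (SE, limma adjusted p = 0.554).

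Downstream of the lymphotoxin beta receptor, 8 of 8 listed genes passed the filter and 1 was at an unadjusted p under 0.05. Traf3, an adaptor that restrains the noncanonical NF-kappaB pathway, averaged 4.41 ± 1.15 in Il10-/- Tnfr1-/- (SD, n = 6) and 2.96 ± 0.575 in Il10-/- (SD, n = 5). Its ranges, 3.63 to 6.32 in Il10-/- Tnfr1-/- and 2.34 to 3.57 in Il10-/- colons, did not overlap, which was so with higher values for 42 (0.31%) of all genes tested. The log2 fold change was 0.49 ± 0.20 (SE) at a limma adjusted p of 0.536. Map3k14, which encodes the kinase NIK that TRAF3 holds in check, had a log2 fold change of 0.30 ± 0.25 and Chuk, the kinase NIK activates, 0.40 ± 0.23, at adjusted p-values of 0.601 and 0.537 in limma. The median of the list was 0.00.

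Elsewhere in the TNF superfamily no tested gene reached an unadjusted p under 0.05. Among 15 other ligands, 5 passed the filter with a median fold change of 0.13, led by Tnfsf12, which encodes TWEAK, with 5.71 ± 3.33 in Il10-/- Tnfr1-/- (SD, n = 6) and 3.30 ± 2.13 in Il10-/- (SD, n = 5). Cd70 was at 0 in every library, and Tnfsf11, the gene of the RANKL that osteoprotegerin captures, was at 0.0327 to 1.75 in Il10-/- Tnfr1-/- colons and no higher than 0.231 in Il10-/- colons. Of 24 other receptors, 13 passed, with a median of 0.17. Tnfrsf8 was below the filter and not tested, and ran from 0.0328 to 0.867 in Il10-/- Tnfr1-/- and from 0.0982 to 5.15 in Il10-/- colons. Tnfrsf11a, the receptor for RANKL, had a log2 fold change of -0.26 ± 0.15 (SE, limma adjusted p = 0.536). Fas, a death receptor, averaged 12.5 ± 2.95 in Il10-/- Tnfr1-/- and 15.9 ± 3.71 in Il10-/- colons (-0.34 ± 0.20, adjusted p = 0.537).

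**Figure D4:**
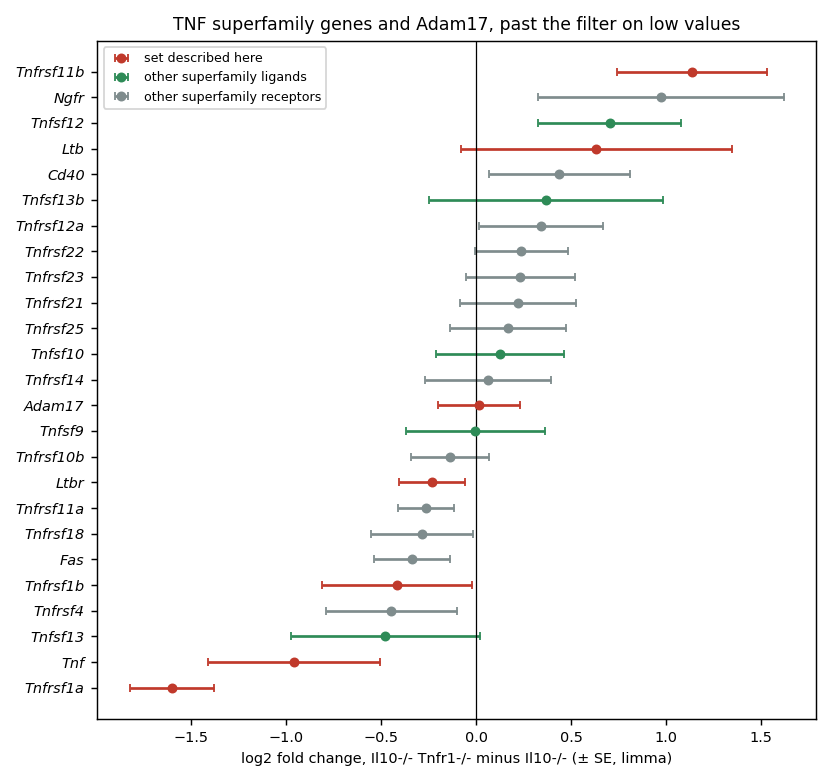
Log2 fold change, Il10-/- Tnfr1-/- minus Il10-/- (horizontal axis, points with SE from limma), of the 7 genes of the set and the 18 other ligand and receptor genes of the superfamily that passed the filter. Tnfrsf1a at -1.60 is the lowest and Tnfrsf11b at 1.14 the highest, and no gene passed the adjusted threshold.

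Ranking the genes by abundance assumes that the values were divided by transcript length. The order of abundance in Il10-/- Tnfr1-/- colons was Ltbr, Tnfrsf1a, Adam17, Tnfrsf1b, Ltb, Tnfrsf11b, Tnf and Lta, by the mean. In Il10-/- colons it was Ltbr, Tnfrsf1a, Tnfrsf1b, Adam17, Tnf, Ltb, Tnfrsf11b and Lta. In Il10-/- Tnfr1-/- colons the ranges of Ltbr and Tnfrsf1a were apart, and those of every other neighbouring pair overlapped. In Il10-/- colons the ranges of Tnfrsf1a and Tnfrsf1b were apart and those of every other neighbouring pair overlapped. Within libraries, Ltbr was above Tnfrsf1a in 6 of 6 Il10-/- Tnfr1-/- colons and in 4 of 5 Il10-/- colons. The order of Ltb and Tnfrsf11b in Il10-/- Tnfr1-/- colons held in only 3 of 6 libraries, and that of Tnfrsf1b and Adam17 in Il10-/- colons in 2 of 5.

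Genes beside the set on both chromosomes were examined as well. Around Tnfrsf1a and Ltbr, 6 of 7 listed neighbours passed the filter, and their median fold change was -0.32. Ncapd2, a condensin subunit 158 kb away, averaged 31.0 ± 6.15 in Il10-/- Tnfr1-/- (SD, n = 6) and 49.5 ± 12.5 in Il10-/- (SD, n = 5), a log2 fold change of -0.66 ± 0.19 (SE, unadjusted p = 0.00467, limma adjusted p = 0.536), with groups that overlapped. Scnn1a, a sodium channel subunit whose start is 28.7 kb away, had -0.56 ± 0.54, Tapbpl -0.34 ± 0.22 and Plekhg6, on the other side, 0.27 ± 0.22. Around Tnf, 8 of 9 neighbours passed the filter, none was at an unadjusted p under 0.05, and the median was -0.31. Their fold changes ran from -0.39 for Bag6 to 0.03 for Atp6v1g2. The fold change of Tnf, -0.96, lay below all of these and that of Ltb, 0.63, above all of them.

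**Figure D5:**
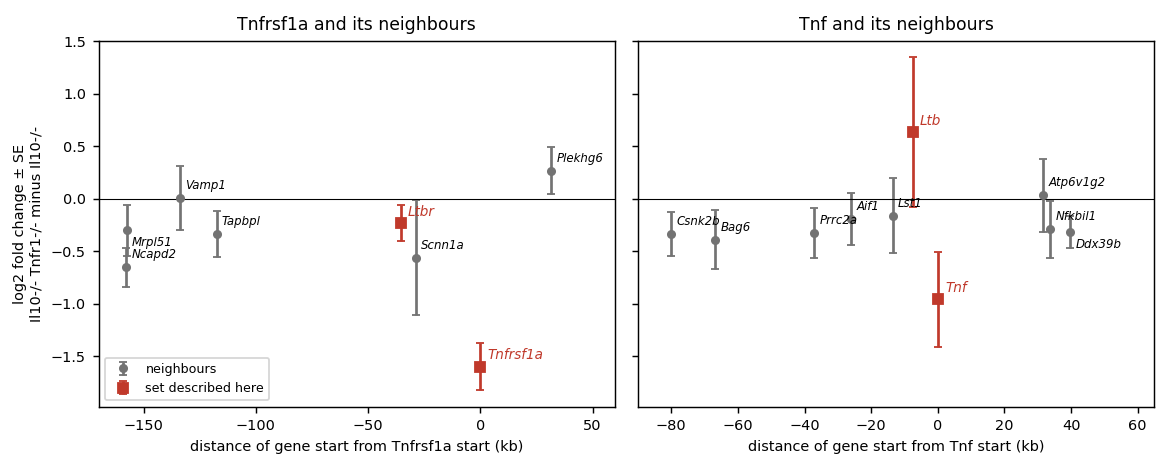
Log2 fold change with SE, Il10-/- Tnfr1-/- minus Il10-/- (vertical axis), against the distance of each gene's start from that of Tnfrsf1a (left) or Tnf (right), in kb. Tnfrsf1a at -1.60 lies below its neighbours, which run from -0.66 to 0.27, while Tnf and Ltb lie on either side of theirs.

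For each gene past the filter, the genes whose log2 values were most like it across the 11 colons, after the mean of the genotype was removed, were sought among 11937 genes. These correlations are the highest of very many and are given as a description, over libraries that share their scaling. For Tnf they were Guca1a (Pearson r 0.930, Spearman rho 0.936), Zfp592 (0.929 and 0.927) and Ripk2 (0.873 and 0.845), and without the 2 colons farthest from the median of Tnf r was 0.870, 0.857 and 0.703. Ltb was most like Lpxn (r 0.978, rho 0.909), Gimap3 (0.964 and 0.864) and Arhgap45 (0.956 and 0.909), and r was 0.928, 0.894 and 0.846 without the 2 farthest colons. Tnfrsf1a was most like Ppa1 (r 0.951), Trp53i11 (0.947) and Thop1 (0.946). Tnfrsf1b was most like Nubp1 (0.976), Plekha2 (0.948) and Tmem50b (0.947). Ltbr was most like Gtf2f1 (0.967), Psmb6 (0.962) and Nelfe (0.958). Adam17 was most like Numb (0.949), Rhoa (0.949) and Mef2d (0.939), and Tnfrsf11b like Fzd4 (0.962), Ptk7 (0.957) and Arl15 (0.954).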

How the data were processed

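Of 12 labelled mice, 11 could be matched to a column by title. Il10-/- replicate 4 had no matching column and 1 column had no matching title, and neither entered any step. Per the labels' protocols, stranded mRNA libraries were read as 75-base single-end reads. CASAVA, kallisto, sleuth and mm10 are named in the submitters' processing notes, without versions or settings.

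Each library's deposited signal is an abundance by transcript, scaled in a way the headers do not name. Division by transcript length was assumed. The authors also deposited a p-value, a q-value, a log2 fold and a mean in natural log units for each transcript, which were quoted only as theirs.

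After 866 repeated rows were dropped, 113193 transcripts were summed to 35688 genes. Genes over 1 in at least 5 libraries were tested with limma 3.58.1 (R 4.3.3; intensity trend, robust moderation) on log2(value + 0.5), adjusted by Benjamini-Hochberg, at a threshold of 0.05. The same fit was run on single transcripts. Single genes, transcript shares and ratios were tested by exact two-sided permutation of the samples. Annotation was from GENCODE M21, in which all 26 transcripts of the set were found, and promoters were from RefSeq (GRCm38.p6). On simulated data of 13561 genes for this comparison, 38 of 100 genes changed by 1 on the log2 scale and 97 of 100 changed by 3 were called, with 6 false calls. Each simulated gene was drawn independently, with the mean and spread of the real values and a normal distribution on the log2 scale. Shifts shared by many genes in a colon were thus absent, so these rates do not give the power in the real colons.

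The genes and lists were chosen with earlier results of these data known. All 8 genes are named. From each other list, at most the 3 tested members of smallest p were taken. Every tested neighbour of the loci and the 3 genes most like each gene were eligible too. Other members of a list, named for their role, for being at 0 or for their low values, were chosen after their values were seen. Pseudocounts, filters, scalings, covariates and left-out libraries were varied, with the outcome given in the closing section.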

Additional observations from a re-analysis of the deposited data

Results flagged for a closer look

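In 20 groups of 5 or 6 libraries examined for a library far from the rest, 2 stood out, and chance gives about 1 in 20 groups. That rate assumes independent groups and normally distributed values. The abundances were used here without a log, and Adam17 entered both as a gene and as 2 of its transcripts, so the rate is only a rough guide. Ltbr was 80.1 in Il10-/- Tnfr1-/- replicate 6, while the other 5 Il10-/- Tnfr1-/- colons lay between 54.2 and 63.6. The gap to the nearest colon was 0.637 of the whole range, above Dixon's 95% critical value for 6 samples. Without that colon the Ltbr log2 fold change was -0.31. Adam17-203 was 5.67 in the same colon, while the other 5 lay between 0.00503 and 1.59, a gap of 0.720 of the range. This colon also had the highest epithelial and colon marker sums of all colons, 25557 and 36222. Il10-/- replicate 6, with the most Ltbr of all colons, had the next highest epithelial sum, 23405. The part of cell composition in these values was not tested.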

How the results depend on the processing

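No paired analysis was possible because the replicate numbers were given in sample order and pair no mice. Tnfrsf1a kept its lower mean in every alternative (log2 fold change -1.83 to -1.41) and passed the adjusted threshold in 2, quantile normalization (-1.59, limma adjusted p = 0.0339) and without Il10-/- replicate 2 (-1.74, 0.0340); leaving out single libraries gave -1.74 to -1.41. The Adam17 fold change turned negative with median-ratio size factors (-0.0525), quantile normalization (-0.0620), the first title digit as a covariate or names starting with 1 alone (-0.14 in both) and the smooth muscle score (-0.0291), and ran from -0.0943 to 0.169 when single libraries were left out; it was 1.27 for Adam17-201 alone. The signs of the other 6 genes held throughout. With single libraries left out, the Tnf to Adam17 ratio difference ran from -1.32 to -0.66 (permutation p = 0.0254, adjusted over the 4 ratios, without Il10-/- replicate 2). That colon had the lowest Tnf to Adam17 ratio of the Il10-/- colons, -2.43. Of the 4 ratios, 2 have the targeted gene as denominator, and their small p-values ease the adjustment. Over the same omissions, the Ltb to Ltbr difference ran from 0.35 (without Il10-/- Tnfr1-/- replicate 2) to 1.21. The leading transcript share difference then ran from -6.08 to -4.22 points for Tnfrsf1a, 0 to 1.80 for Tnfrsf1b and -0.18 to 1.20 for Ltbr. Genes called were 0 except for 1 with quantile normalization and 2 without Il10-/- replicate 2; transcripts called were 0 except for 1 without that replicate. Genes at an unadjusted p under 0.05 (1131) numbered 482 to 2458 with single libraries left out (2458 without Il10-/- replicate 1, 1727 without 2, 482 without 6), 243 with the title digit, 142 in names starting with 1 and 616 with the smooth muscle score. Transcripts (1748) numbered 800 to 5270 with single libraries left out (1044 without Il10-/- Tnfr1-/- replicate 4; 5270, 1148 and 800 without Il10-/- replicates 1, 5 and 6), 3518 without a filter, 453, 278 and 910. Equal totals moved the median of all genes from 0.05 to 0.19 and the share of higher genes at that p from 56.9% to 75.1%; median-ratio scaling gave 40.3% and quantile normalization 41.3%. The cause of these moves was not tested. Depth is unknown, so no floor can be given for genes near 0 such as Lta.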
